A study of Dugesia japonica with 6 samples.

Results

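The 100 components with the most transcript contigs were examined in RNA-seq libraries of the planarian Dugesia japonica. The part of a deposited contig ID before "_seq" was taken as its component and the number after it as 1 contig of that component. IDs of this form are used by de novo assemblers, in which a component holds sequences that overlap and were not separated. All contigs with at least 1 read in any library were pooled, components were ranked by how many such contigs they had, and ties were ordered by component ID. The first 100 of 16760 components were taken, with 4135 of 44723 contigs. They make up 0.597% of the components and 9.25% of the contigs. The count of listed contigs chose these components, so it is a description and not a result.

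The study compared intact AdOx-adapted planarians with control planarians and asked which genes are differentially expressed in animals resistant to an inhibitor of S-adenosylhomocysteine hydrolase (SAHH). AdOx animals, about 1 cm long, were kept 1 month in spring water with 100 µM adenosine dialdehyde (AdOx). Control animals of the same size spent the same 1 month in water with the hydrochloric acid vehicle. Each group had 3 libraries of 6 individuals, made from poly(A)-selected RNA. All animals came from a colony kept in the dark at a constant temperature, were fed liver paste, and were starved before the start. The labels name no strain or age, and each library pools whole animals. The files pair no ID with a gene name or a sequence, so cell types could not be checked against markers and no protein is named here. The libraries are called AdOx 1, AdOx 2, AdOx 3, control 1, control 2 and control 3 after the replicate numbers of their labels, and values of a group are given in that order. Total counts were 16963553, 15606794 and 16922374 for AdOx, against 20385026, 18687643 and 18167550 for control. All AdOx libraries were thus shallower than all control libraries.

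Planarians are freshwater flatworms that regrow missing body parts from a population of adult stem cells. SAHH breaks down S-adenosylhomocysteine, which is left when a methyl group is handed on from S-adenosylmethionine. AdOx blocks the enzyme, and the S-adenosylhomocysteine that builds up inhibits methyltransferases acting on RNA, proteins and other substrates. Many contigs in 1 component can stem from alternative splicing, from alleles, from closely related gene copies, from repeats, or from joining errors of the assembler. The total of a component follows the summed RNA of all such forms, and the share of its reads on each contig follows the balance between them.

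The components held between 28 and 108 contigs, with a median of 36, where the median over all components with 2 or more contigs outside them was 3. The largest was comp144978_c3 with 108 contigs, followed by comp141430_c3 with 103, comp145075_c1 with 90, comp141224_c1 with 76 and comp143519_c2 with 72. The ranking passes through a tie: 11 components had 28 contigs, of which 9 were taken and 2 were left out. The last inside were comp144821_c0 and comp145214_c2, and the first outside were comp145352_c2 and comp146080_c1. The summed reads of these 4 components differed widely although the contig number was equal. The mean over AdOx libraries was 149 CPM (reads relative to library size, with TMM factors) for comp144821_c0, 8.49 CPM for comp145214_c2, 98.1 CPM for comp145352_c2 and 34.5 CPM for comp146080_c1. The corresponding means over control libraries were 170, 8.03, 101 and 31.6 CPM. Read counts depend on the length of a contig, and no lengths were used here, so these values do not order the components by level.

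Although they held 9.25% of the contigs, the components took under 1% of the reads of any library. The share was 0.931%, 0.821% and 0.947% for AdOx, against 0.963%, 0.861% and 0.942% for control. The group means were 0.899% ± 0.0688 in AdOx and 0.922% ± 0.0539 in control (SD, n = 3 each), and the groups overlapped. In both groups the library numbered 2 was the lowest. A member contig had a median of 94 reads over the 6 libraries together, against 380 for all contigs, and 327 member contigs had fewer than 10. Those 327 were 45.9% of all contigs with so few reads. Of the 4135 contigs, 3651 had reads in all 6 libraries. No member contig was among the 100 contigs with the highest mean CPM: the highest member contig averaged 154 CPM, and the 100th contig of the whole series 1070 CPM.

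Reads were spread over the contigs of most components with little preference for any of them. The effective number of contigs is the inverse of the sum of squared read shares, and equals the number of contigs when all hold the same reads. With the 6 libraries pooled it had a median of 28.1 over the components and ran from 1.30 to 99.2. Divided by the number of contigs, it gave an evenness with a median of 0.817, and 59 of 100 components reached 0.8. The most read contig held under 10% of the reads in 83 components and over 25% in 8. The component with the highest effective number was comp141430_c3. Its 103 contigs had from 110 to 261 reads each, all passed the filter on low counts, and 90 of them were needed to hold 90% of the reads. In single libraries its effective number averaged 96.0 ± 1.53 in AdOx and 96.5 ± 0.275 in control (SD, n = 3 each). Evenness was also high in components with fewer contigs: its median was 0.872 over the next 100 components by rank and 0.913 over all 7173 other components with 2 or more contigs. The most read contig held under 10% of the reads in 80 of the next 100 and in 2.51% of all others. It held over 25% in 0 of the next 100 and in 83.4% of all others. Its share cannot fall under 1 divided by the number of contigs. How reads that match several contigs were placed was not given in the sources used here, and its part in the even shares was not tested.

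**Figure D1:**
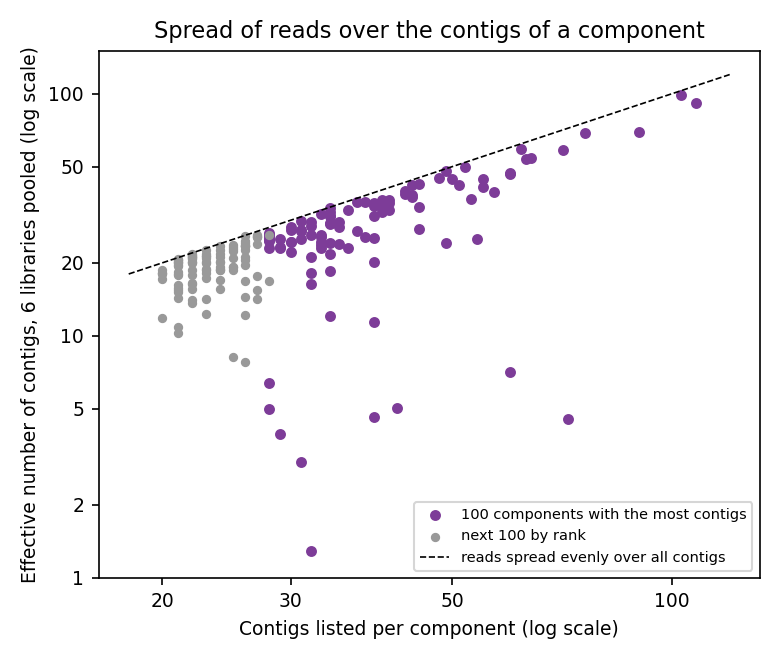
Effective number of contigs against the number of contigs listed, both on log scales, 1 point per component, with the 6 libraries pooled. Most of the 100 components (purple) and of the next 100 by rank (grey) lie close below the dashed line of an even spread, and 8 of the 100 have an evenness under 0.2.

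In 8 components the evenness was under 0.2. The same held for 0 of the next 100 by rank and for 5, or 0.0697%, of all other components with 2 or more contigs. Evenness cannot fall under 1 divided by the number of contigs, so components with few contigs cannot reach such values. The extreme of the 8 was comp136742_c0, with 32 contigs and an effective number of 1.30. Its contig comp136742_c0_seq6 held 88.0%, 87.5% and 88.2% of the component's reads in AdOx animals, against 87.1%, 87.2% and 89.2% in control animals. The groups overlapped, and the whole range over the libraries was 2.04 percentage points. The other 31 contigs had between 10 and 41 reads each over all libraries. Such a component counts as many-contig by the rule although most of its reads lay on 1 contig. The rest of the 8, named here after their values were seen, were comp143519_c2, comp145383_c1, comp144402_c2, comp145415_c0, comp140462_c0, comp146359_c0 and comp140870_c4.

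Some components were split into a few contigs with equal reads and a long tail. In comp140066_c4, the component with the most reads, 6 of the 28 contigs had 16170 to 16520 reads each and together 96.7% of the total. Their pooled counts had a chi-square per degree of freedom of 1.21 against equal reads, where counting error alone gives values near 1, and the next contig had 283. In comp143519_c2, with 72 contigs, comp143519_c2_seq27 held 36.6% of the reads and the 4 that followed had 4616 to 4712 reads each, with a chi-square per degree of freedom of 0.362. The other 67 contigs had at most 64 reads each. These sets of equal contigs were picked after their values were seen, so the chi-square values describe them and are no test.

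**Figure D2:**
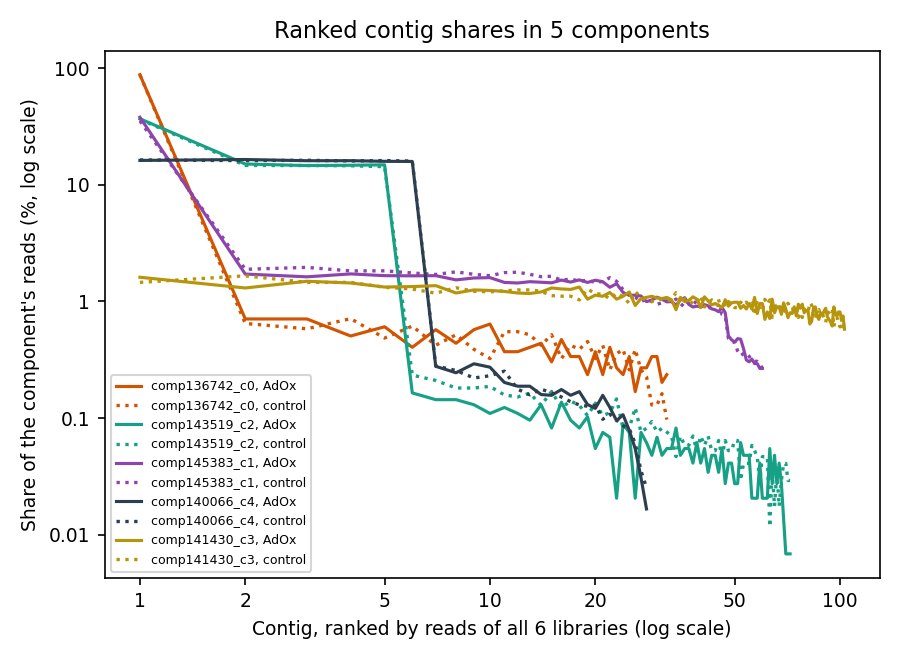
Share of a component's reads on each contig (%, log scale), with contigs ranked by the reads of all libraries (log scale), pooled over the 3 AdOx libraries (solid) and the 3 control libraries (dotted), for 5 components. comp140066_c4 shows 6 equal contigs and comp143519_c2 1 leading and 4 equal contigs before the drop, comp136742_c0 a single leading contig, and comp141430_c3 a slow decline over 103 contigs.

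The low tail of comp143519_c2 held a lower share of reads in each AdOx library than in any control library. The 67 contigs below the leading 5 held 4.35%, 4.37% and 3.11% of the component in AdOx animals, against 6.10%, 5.37% and 4.72% in control animals. The means were 3.94% ± 0.724 in AdOx and 5.40% ± 0.693 in control (SD, n = 3 each). The tail was chosen after its values were seen and was given no test. In comp140066_c4 the 22 contigs below the leading 6 held 3.40% ± 0.108 in AdOx and 3.18% ± 0.221 in control (SD, n = 3 each), and the libraries overlapped.

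In most components the contig with the most reads changed from library to library. The same contig led in all 6 libraries in 17 components. That was the case for 5 of the next 100 by rank and for 50.6% of all other components with 2 or more contigs, most of which have few contigs. The leading contig of the pooled reads held a median of 5.39% of a member component, 7.33% in the next 100 and 50.4% in all others. The part of counting error in the changes of leader was not tested. In 11 member components the contig with the most pooled reads led in no single library, among them comp140007_c0, with 62 contigs, and comp145839_c1, with 50. That held for 9 of the next 100 by rank and for 0.237% of all others. In comp140007_c0 the leading contig of the pooled reads, comp140007_c0_seq22, held only 2.43% of them. No component had 1 leading contig in all AdOx libraries and another in all control libraries. Among the 7173 other components with 2 or more contigs this held for 40, or 0.558%.

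The spread of contig shares between libraries of a group was described by a chi-square, which is near 1 per degree of freedom where libraries differ by counting error alone and grows with the reads where they differ by more. Within a group, the chi-square per degree of freedom of the contig shares had a median of 1.07 over 95 components in AdOx and of 0.987 over 92 components in control. The remaining components had fewer than 2 contigs with at least 5 expected reads per library. For the component totals the median over 100 components was 3.41 in AdOx and 4.70 in control, but totals hold far more reads than single contigs, so these values do not compare the variability of totals and shares. The share of reads that lay on other contigs was then compared between libraries. The median over components was 10.3% to 13.0% for the 9 pairs of an AdOx and a control library, 11.6% to 12.5% for the 3 AdOx pairs and 10.7% to 11.1% for the 3 control pairs. The values of pairs across groups thus overlapped those of pairs within each group. In 47 of 100 components the mean over pairs across groups was above the mean over pairs within groups. The same held for 51 of the next 100 by rank and for 41.6% of all other components with 2 or more contigs.

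A single component, comp145383_c1 with 60 contigs, had a chi-square per degree of freedom of its shares above 2 in either group. The value was 4.51 in AdOx and 3.8 in control. Above 2 in either group were also 1 of the next 100 components by rank and 25.4% of all other components with 2 or more contigs. Most of those others have few contigs, so the value has few degrees of freedom and passes 2 more easily by counting error alone. The 25.4% thus does not compare their spread with that of the 100 components. Their median was 0.999 in AdOx and 0.980 in control. Contig comp145383_c1_seq49 was at 133, 165 and 134 CPM for AdOx, against 118, 151 and 140 CPM for control. The other 59 contigs summed to 252, 169 and 276 CPM for AdOx, against 293, 213 and 230 CPM for control. The leading contig was thus highest in AdOx 2 and lowest in control 1, and the summed others were lowest in AdOx 2 and highest in control 1. Within each group the library numbered 2 had the highest CPM of the leading contig and the lowest of the summed others. The share of the leading contig was also highest in these libraries, at 49.5% in AdOx 2 and 41.6% in control 2. Of the 59, 46 had their lowest CPM in AdOx 2. The share of comp145383_c1_seq49 accordingly ran from 28.6% in control 1 to 49.5% in AdOx 2, a range of 20.9 percentage points and the widest of the 100 components. Its share did not pass the test between groups (unadjusted p = 0.296 by edgeR), and both groups held high and low libraries. The next widest range, 12.1 percentage points in comp145532_c1, rests on 33 to 77 reads per library.

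**Figure D3:**
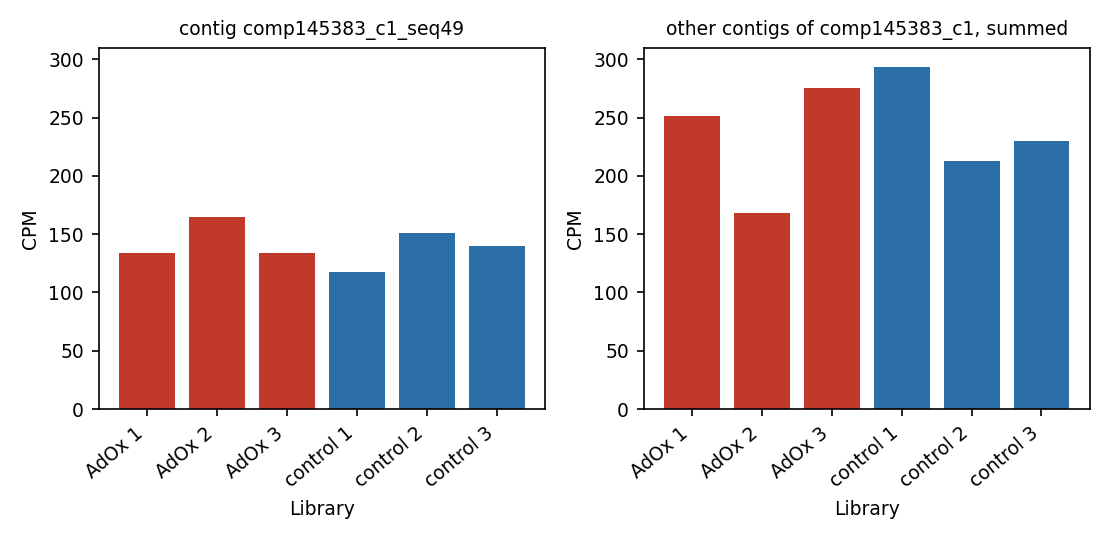
CPM of contig comp145383_c1_seq49 (left) and the summed CPM of the other 59 contigs of its component (right) in each AdOx library (red) and each control library (blue). AdOx 2 is the highest on the left and the lowest on the right, and control 1 the lowest on the left and the highest on the right. Within each group the library numbered 2 is the highest on the left and the lowest on the right.

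The totals of the 100 components were compared between AdOx and control animals. The quasi-likelihood test of edgeR was fitted to all 15448 components that passed the filter on low counts, and p-values were adjusted after Benjamini and Hochberg. All 100 passed the filter. None was called at an adjusted p under 0.05, where 0.343% of all tested components were, and the smallest adjusted p among the 100 was 0.238. Without adjustment 6 of 100 had a p under 0.05, against 12.1% of all tested components, and the DESeq2 Wald test called 0, where it called 1.15% of all tested, and gave 2 of 100 with an unadjusted p under 0.05, against 8.28%. Of the 100, 47 were higher and 53 lower in AdOx, with a median log2 fold change of -0.02 against 0.01 over all tested components. The groups did not overlap in 12 components, against 18.7% of all tested: 9 were higher in all AdOx libraries, against 10.3%, and 3 lower, against 8.37%. In RNA of whole animals, fewer cells of a type and less RNA per cell cannot be told apart.

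A change of 2-fold in a total lay outside the 95% interval of every component in this fit. The log2 fold changes ran from -0.32 to 0.34, or from 1.24-fold lower to 1.27-fold higher. The intervals, which are not adjusted for the number of components, reached from -0.65 to 0.71 on the log2 scale. For 94 of 100 components the interval also lay inside 1.5-fold in either direction, as it did for 76.8% of all tested components. The median total was 49.0 CPM, against 19.8 CPM for other components with 2 or more contigs. The 4135 contigs include none of the 119 in the authors' deposited table of changed contigs, which are 0.266% of all contigs. The name of the authors' deposited table speaks of 2 replicates, and which libraries it rests on was not stated. No component with a contig in the authors' deposited table had more than 5 contigs.

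**Figure D4:**
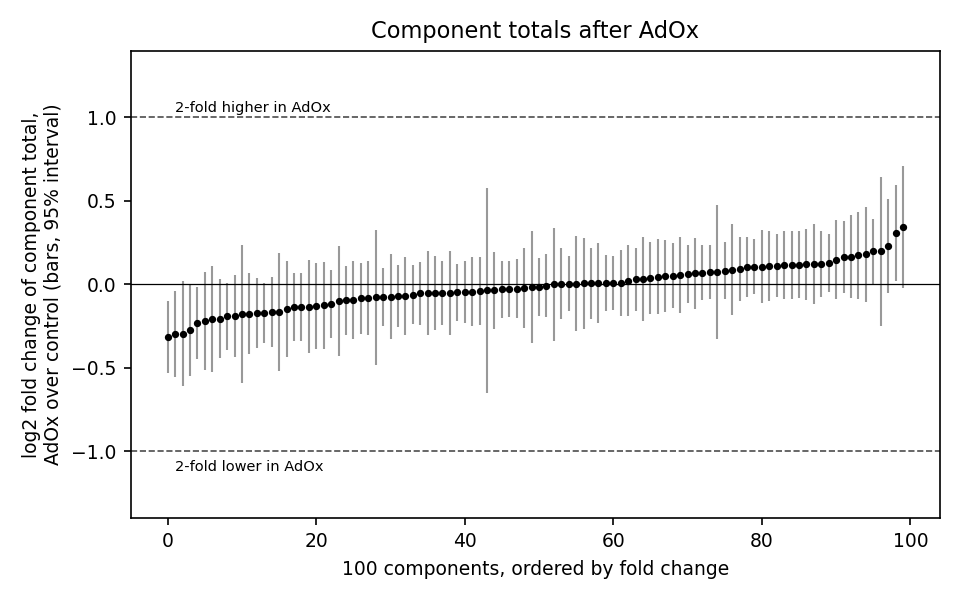
log2 fold change of the total of each of the 100 components, AdOx over control, in increasing order (points), with the 95% interval from edgeR (bars). All intervals lie between the dashed lines at 2-fold, and 53 points are below and 47 above 0.

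The smallest p for a lower and for a higher total belonged to comp140066_c4 and comp140868_c0, and neither passed the test. comp140066_c4 had 859, 772 and 892 CPM for AdOx, against 1073, 936 and 1132 CPM for control. All AdOx libraries were below all control libraries, at a log2 fold change of -0.32, its standard error 0.10, and an edgeR adjusted p of 0.238. Its 6 contigs with equal reads had log2 fold changes of abundance from -0.27 to -0.32. comp140868_c0, with 51 contigs of which none passed the filter on its own, had 6.09, 7.35 and 6.16 CPM for AdOx, against 5.34, 5.31 and 5.14 CPM for control. All AdOx libraries were above all control libraries, with a log2 fold change of 0.31, its standard error 0.13, and an edgeR adjusted p of 0.378. Its totals rest on 105, 115 and 105 reads in AdOx and 111, 98 and 90 in control.

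The totals of the largest components by contig number differed by less than the spread between libraries. comp144978_c3 had 6.32, 6.32 and 5.39 CPM in AdOx, against 6.44, 4.93 and 6.86 CPM in control. comp141430_c3 had 172, 141 and 174 CPM in AdOx, against 166, 142 and 163 CPM in control. In both, the groups overlapped and the log2 fold changes, -0.02 with a standard error of 0.15 and 0.05 with a standard error of 0.10, were smaller than their errors. comp145075_c1 averaged 35.3 ± 1.2 CPM in AdOx and 36.1 ± 1.37 CPM in control (SD, n = 3 each). comp143519_c2 averaged 292 ± 22.4 CPM in AdOx and 302 ± 15.4 CPM in control (SD, n = 3 each), beside the lower share of its tail described above. comp141224_c1 had a wide spread, with 460, 343 and 500 CPM in AdOx and 510, 422 and 573 CPM in control. In both groups its replicate 2 was the lowest, and its log2 fold change of -0.21 had a 95% interval from -0.53 to 0.11. That value was -0.07 without AdOx 2, -0.32 without AdOx 3, -0.32 without control 2 and -0.11 without control 3. comp143735_c0, among the 3 with the most reads, averaged 514 ± 42.1 CPM in AdOx and 476 ± 38.4 CPM in control (SD, n = 3 each), and its groups overlapped.

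The share of each contig in its component was tested in 1 model over the reads of the contig and the reads of the other contigs of the component, with the library as a term. Of the 4135 contigs, 2613 in 86 components passed the filter and were tested, holding 96.3% of the components' reads. In the other 14 components no contig had enough reads. With adjustment over 30264 contigs, edgeR called the share of no member contig, where it called 0.102% of all tested contigs. The smallest adjusted p was 0.187. Without adjustment 145 of the 2613, or 5.55%, had a p under 0.05, against 5.5% of all tested contigs. After adjustment, limma on log ratios and diffSpliceDGE called 0 member contigs and 0 of all tested contigs. Without adjustment limma had 129 member contigs with a p under 0.05, or 4.94% against 5.57% of all tested, and diffSpliceDGE 72 of 2611, or 2.76% against 1.43%. With 1 p per component by the method of Simes, 0 of 86 components were called, against 0.279% of all tested, and 5 had an unadjusted p under 0.05, against 5.21%. The libraries of the 2 groups did not overlap for 289 contigs, or 11.1%, against 10.2% of all tested. Of these, 133 were higher in AdOx, or 5.09% against 5.01%, and 156 lower, or 5.97% against 5.21%. The non-overlapping percentages, and the unadjusted ones of edgeR and limma, are near those of the whole series. With diffSpliceDGE the unadjusted percentage was higher among member contigs.

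The tests bound a change of share less tightly than a change of total. The log2 ratio of the odds of a read lying on the contig ran from -1.25 to 1.15, and its 95% interval lay inside 2-fold for 2332 of the 2613 contigs. The tested contigs had a median of 30 reads per library. Among contigs that held at least 5% of their component, comp141871_c0_seq29 had the smallest p for a higher share. It held 8.20%, 5.96% and 7.87% of its component in AdOx animals, against 4.52%, 6.62% and 4.61% in control animals. AdOx 2 was below control 2, so the groups overlapped, and the edgeR adjusted p was 0.664. comp144378_c3_seq5 had the smallest p for a lower share, with 4.37%, 4.50% and 5.0% for AdOx against 6.57%, 5.14% and 5.58% for control. All its AdOx libraries were below all control libraries, but the edgeR adjusted p was 0.698.

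The abundance of single contigs was tested in the same way. Of 2613 member contigs tested, none was called by edgeR at an adjusted p under 0.05, where 0.147% of all 38728 tested contigs were, and 131 had an unadjusted p under 0.05, or 5.01% against 8.99%. The DESeq2 Wald test called 0, against 0.336% of all tested, and had 47 at an unadjusted p under 0.05, or 1.80% against 4.83%. The groups did not overlap for 297 contigs, against 14.5% of all tested: 127 were higher in AdOx, or 4.86% against 7.89%, and 170 lower, or 6.51% against 6.65%. The log2 fold changes ran from -1.11 to 1.22, with a median of -0.03. Within a component, the SD of the contigs' log2 fold changes had a median of 0.24 over the 84 components with at least 2 tested contigs. In comp143735_c0 it was 0.090 on the same scale, and 26 of its 28 contigs were higher in AdOx. In comp141224_c1, 69 of 76 contigs were lower in AdOx. Contigs of a component may share reads, so such counts follow the total and are no separate evidence.

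A few contigs had reads in all libraries of 1 group and in none of the other, always at the limit of detection. comp140812_c0_seq35, comp143222_c1_seq59 and comp144978_c3_seq42 had 6, 5 and 6 reads in the AdOx libraries together and 0 in control. comp144978_c3_seq81, comp140868_c0_seq28 and comp144825_c0_seq61 had 0 reads in AdOx and 6, 4 and 4 in the control libraries together. comp144825_c0_seq18 had the most, with 0 reads in AdOx against 4, 4 and 5 reads in the control libraries. They were picked by these values, and none had enough reads to be tested. No count of such contigs over the whole series is given here, so their number is no result about the components.

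The effective number of contigs differed little between groups. It averaged lower over the AdOx libraries in 64 components and higher in 36, with a median difference of -0.21 contigs, and it was lower in 62 of the next 100 components by rank and in 50.1% of all other components with 2 or more contigs. The median over components was 26.8, 27.4 and 26.9 for AdOx, against 27.2, 27.1 and 27.2 for control, so the groups overlapped in this median. All AdOx libraries were below all control libraries in 12 components and above them in 2, with no such count given here for other components. The measure can grow with the number of reads, and the AdOx libraries were the shallower ones. AdOx 2, the shallowest of all, had the highest median in this uncorrected form. In a form corrected for depth, chosen after the data were examined, 52 components were lower and 48 higher, with a median difference of -0.03 contigs. The median over components in that form was 27.8, 28.6 and 29.1 for AdOx, against 28.1, 28.7 and 28.4 for control. AdOx 3 was then the highest. The part of depth in the difference was described in this way and was not tested.

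The libraries numbered 2 were low for many of the components. The CPM of the 100 components summed to 9151, 8181 and 9395 for AdOx, against 9437, 8718 and 9786 for control, with the library numbered 2 lowest in both groups. Both replicate 2 libraries lay below the other 4 in 34 of 100 components, against 2464 of all 15448 tested, and above the other 4 in 4 of 100, against 13.9%. AdOx 2 alone held the lowest total of 41 components, against 27.6% of all tested, and control 3 the highest total of 33, against 19.4%. The labels do not say whether a replicate number marks a shared vessel, day or batch, so these are counts with no test.

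**Figure D5:**
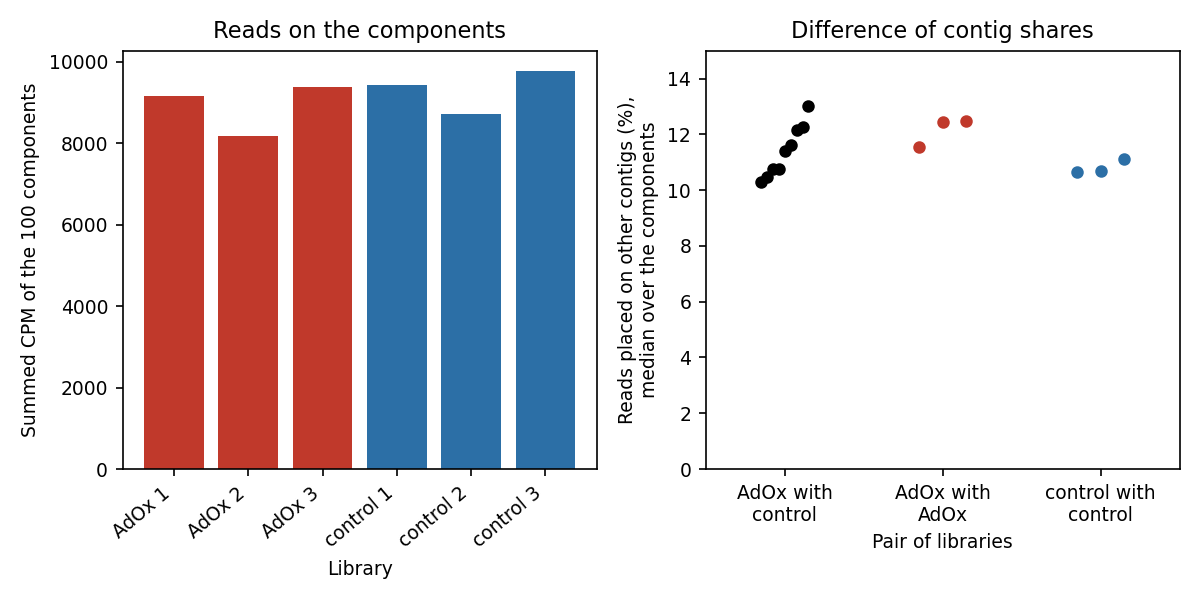
Left, the summed CPM of the 100 components in each AdOx library (red) and each control library (blue). Right, the percent of a component's reads that lie on other contigs in 1 library than in another, as the median over the components, for each pair of libraries; the 9 pairs across groups (black) span the values of the pairs within AdOx (red) and within control (blue).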

How the data were processed

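Each library had 1 deposited file of raw counts, the number of reads per contig. A table of changed contigs that the authors deposited holds log2 fold changes with standard errors, p-values, and 2 columns of unit score, namely the mean of the normalized counts and the test statistic. Per the submitters' processing notes, Bowtie2 2.2.3 and DESeq2 were used. The transcriptome, the counter and its use of strand were not given in the sources used here. The titles gave the groups and numbers. No label says that libraries came from separate vessels, so the spread behind each p may be technical.

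A contig missing from a file was set to 0. Contigs and totals were filtered with filterByExpr (minimum count 10, minimum total 15), scaled by TMM and tested two-sided with edgeR 4.0.16 in R 4.3.3 (glmQLFit and glmQLFTest, group only). A standard error is the size of the log2 fold change over the square root of F. For shares, 12 columns held the reads of a contig and of the other contigs of its component in each library, with terms for library, for contig against others, and for its interaction with group, which was tested. Alternatives used DESeq2 1.42.0, limma 3.58.1 (0.5 added to each count) and diffSpliceDGE. The fits were checked on simulated counts. Chi-square values used contigs with at least 5 expected reads in every library of the group. The components, lists and tests were chosen with earlier results of these data known. Named by rule were the 5 components with the most contigs, the 3 with the most reads, those around the limit of the ranking, the extremes of spread, the widest ranges over libraries, those led most often by other contigs than the pooled leader, and the smallest p in each direction where nothing was called. Contigs read in 1 group only, and sets of contigs described as equal or as a tail, were picked after their values were seen.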

Additional observations from a re-analysis of the deposited data

How the results depend on the processing

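Among the 100 components, 0 totals, contigs and shares were called under each alternative to the normalization, the filter, the test and the threshold, and with any library left out, the replicate block excepted. With the replicate number as a block, edgeR called 4 of 100 totals (comp140066_c4, comp145472_c0, comp145866_c0 and comp146544_c0, all lower in AdOx), against 988 or 6.4% of all tested. It called 9 member contigs, or 0.344% against 2.38% of all tested. These include the 6 contigs with equal reads of comp140066_c4, whose total was also called. It called 2 member shares (comp141127_c0_seq31 and comp146444_c0_seq21, both lower), or 0.0765%, against 129 or 0.426% of all tested. The labels tie the replicate numbers to no batch. Deviations from the group means were correlated between AdOx and control libraries over all tested contigs. Libraries of the same number correlated by 0.094 for number 1, 0.327 for number 2 and 0.133 for number 3. Each AdOx library correlated most with the control library of its own number. However, control 1 correlated more with AdOx 3 (0.125) than with AdOx 1. Over member contigs the same-number values were 0.069, 0.205 and 0.133, each above all other pairs of its libraries. Whether the numbers pair the libraries is thus not settled, and the main fit used the group only.

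Over the whole series 53 totals were called. DESeq2 called 177, and thresholds of 0.01 and 0.1 gave 11 and 114. The count was 21 without AdOx 1, 94 without AdOx 2, 16 without control 1, 32 without control 2 and 10 without control 3. The 31 called shares became 0 with diffSpliceDGE or limma and 20 at a threshold of 0.01, and were 15 without AdOx 1, 61 without AdOx 3 and 17 without control 1. Of 18 named results, 6 totals changed sign with a library left out. The log2 fold change ran from -0.024 to 0.13 for comp141430_c3, which was -0.01 without AdOx 3, from -0.089 to 0.0047 for comp143519_c2, and from -0.14 to 0.067 for comp144978_c3, which was 0.06 without AdOx 3 and 0.03 without control 1. It ran from -0.11 to 0.049 for comp145383_c1, which was 0.03 without control 1, from -0.28 to 0.20 for comp145532_c1, which was 0.14 without control 1 and 0.07 without control 2, and from -0.17 to 0.034 for comp145839_c1. The cause was not tested. The median difference in effective number ran from -0.41 to -0.03. At this depth 1522 member contigs had too few reads to be tested.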
